A study of Homo sapiens with 12 samples.

Results

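The 36 genes described here encode nuclear subunits of mitochondrial complex I and were chosen by name, from the NDUFA, NDUFB, NDUFC, NDUFS and NDUFV series, out of 57500 genes counted in each library. Their transcripts were measured by RNA sequencing in HepG2, a human hepatocellular carcinoma line, in 3 groups of 4 libraries. The study examined whether mammalian cells make cyanide and whether it has regulatory roles, and it altered thiosulfate sulfurtransferase (TST, or rhodanese), a cyanide-detoxifying enzyme, in these lines. WT libraries came from wild-type HepG2 cells. The shTST libraries came from HepG2 cells carrying a TST shRNA, and the overTST libraries came from HepG2 cells carrying a codon-optimized, Myc-tagged TST coding sequence behind a CMV promoter. Per the study's methods, both engineered lines were made by lentiviral transduction and Blasticidin S selection. Whether clones were picked is not given in the sources used here, and the labels name no empty-vector control. All 3 groups were kept in culture medium with 400 µM glycine for 24 h.

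Complex I (NADH:ubiquinone oxidoreductase) is the entry point of NADH electrons into the respiratory chain, and it couples electron transfer to ubiquinone with proton pumping across the inner mitochondrial membrane. Its peripheral arm, in the matrix, binds FMN and the iron-sulfur clusters, and its membrane arm holds the proton channels. The core subunits that carry out catalysis are shared between the nuclear and the mitochondrial genomes, and the other, accessory, subunits are encoded in the nucleus and are needed for assembly or stability. Of the 36 genes, 15 encode subunits of the peripheral arm (6 of them core subunits), 20 encode subunits of the membrane arm, and NDUFAB1, the mitochondrial acyl carrier protein, occurs in both arms.

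Total counts were 28866175 to 45120508 in WT, 27527854 to 33865386 in shTST and 22911380 to 27414142 in overTST. The 36 genes together took 58073 to 95946 counts per library, 0.213% to 0.256% of the total. TST, the targeted gene, stood at 47.2 to 52.8 CPM (counts scaled to a common library size with TMM factors) in WT, 33.0 to 36.6 in shTST and 51.8 to 62.1 in overTST. Its log2 fold change against WT was −0.52 in shTST (p = 0.0286 by an exact permutation test, two-sided, a floor set by having 4 libraries a group) and 0.24 in overTST (p = 0.0571, same exact test), where reads of a codon-optimized transgene need not be counted on the native gene. By the edgeR test used for the other genes, TST had an adjusted p of 3.2e-06 in shTST and 0.00384 in overTST. Of 6 hepatocyte markers, summed at 13590 to 18840 CPM over all libraries, ALB was at 5127 CPM or more in each library. These markers shifted in both directions: ALB (0.39) and AFP (0.49) rose and TTR (−0.33) fell in shTST, while APOA1 (0.24) and TTR (0.16) rose and HNF4A (−0.15) fell in overTST, all on the log2 scale. The 6 markers of leukocytes, fibroblasts, endothelium and squamous epithelium summed to 3.09 to 4.17 CPM in WT, 2.68 to 3.48 in shTST and 4.23 to 4.78 in overTST. PTPRC, COL3A1 and KRT5 were at or near 0, and PECAM1, an endothelial marker, accounted for most of the overTST sum with a mean of 3.28 ± 0.21 CPM (SD, n = 4) against 2.14 ± 0.22 in WT. The part of either marker list in the results was not tested. The series' design text calls the replicates independent, and the study's general statistics note defines independent experiments as ones done on different days. The labels of the libraries give no day or culture, so p-values measure the spread between these libraries.

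All 36 genes were expressed and passed the filter on low counts in each comparison. Per kb of exonic length, as given in the count files, NDUFS5 had the highest level in WT at 291 ± 17.8 CPM per kb (SD, n = 4). NDUFS5 is an accessory subunit on the intermembrane-space side of the membrane arm. NDUFB7 followed at 106 ± 8.57 CPM per kb and NDUFB10 at 90.7 ± 6.99 CPM per kb, both accessory subunits of the membrane arm. NDUFA9, an accessory subunit close to the ubiquinone site, was at 3.84 ± 0.15 CPM per kb. The lowest level was that of NDUFA7, an accessory subunit of the peripheral arm, at 1.43 ± 0.19 CPM per kb, with a mean of 68.7 counts per library. Of its exonic bases, 32.3% are shared with a same-strand gene that had a mean of 1.1 counts and 6.3% with RPS28 on the opposite strand, at a mean of 9563.6 counts, so its level is uncertain. In 23 of 35 pairs of neighbours in this order the ranges of the 4 WT libraries overlapped, so their order was not resolved. Exonic length sums all annotated exons, and it exceeds the principal transcript several fold for some of these genes. Divided by the principal transcript instead, NDUFS8 moved from rank 18 to rank 5 and NDUFA11 from rank 28 to rank 8, while NDUFS5 stayed first and NDUFA7 last. In the count files' build, GRCh38, the genes given most room here include NDUFA1 at chrX:119871487-119876662, NDUFB1 at chr14:92116122-92121917, NDUFS5 at chr1:39026318-39034636, NDUFS8 at chr11:68030617-68036644, NDUFV1 at chr11:67606852-67612535 and NDUFS1 at chr2:206114817-206159603, and reads were counted over their annotated exons.

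Promoters were available from RefSeq (GRCh38.p14, 250 bases before to 50 after the start) for 32 of the 36 genes, and not for NDUFB5, NDUFB9, NDUFC2 and NDUFS5. They were searched on both strands for letters bound by factors known for respiratory-chain genes. AAGATGG, read by YY1, was found in 9 of 32 genes (28.1%) against 7.11% of 27305 genes with a promoter. The palindromic NRF1 motif was found in 6 genes (18.8%) against 6.98% of all. CCGGAAG, read by ETS factors such as GABPA, was found in 5 genes (15.6%) against 12.2% of all, GGGCGG, read by SP1, in 21 genes (65.6%) against 48.3%, and CCAAT in 8 genes (25.0%) against 39.7%. Matches of different motifs were counted separately even where they share bases, as CCGGAAG and AAGATGG can, and a match describes the letters only. The 5 stretches below run from 100 bases before to 30 after the start, 5′ to 3′ on the gene's strand, with matches to any of the 5 motifs in capitals. NDUFA1 had the largest rise in overTST, NDUFA12 is one of the genes higher in both lines, NDUFA3 and NDUFS8 had the largest differences between overTST and shTST, and NDUFS1 is the gene that fell in overTST (the first of its 2 listed starts is shown).
NDUFA1, chrX:119871732-119871861, plus strand: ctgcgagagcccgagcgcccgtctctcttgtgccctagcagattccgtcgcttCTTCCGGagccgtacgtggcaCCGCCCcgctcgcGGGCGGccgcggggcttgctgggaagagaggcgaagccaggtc
NDUFA3, chr19:54102755-54102884, plus strand: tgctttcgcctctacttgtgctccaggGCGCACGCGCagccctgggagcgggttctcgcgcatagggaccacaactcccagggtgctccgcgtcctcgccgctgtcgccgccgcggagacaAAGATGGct
NDUFA12, chr12:95003668-95003797, minus strand: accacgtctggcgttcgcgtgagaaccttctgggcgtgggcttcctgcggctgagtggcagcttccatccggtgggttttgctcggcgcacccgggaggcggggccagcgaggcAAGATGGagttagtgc
NDUFS1, chr2:206159415-206159544, minus strand: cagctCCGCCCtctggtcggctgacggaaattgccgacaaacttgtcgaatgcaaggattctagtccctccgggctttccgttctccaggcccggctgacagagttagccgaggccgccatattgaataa
NDUFS8, chr11:68030581-68030710, plus strand: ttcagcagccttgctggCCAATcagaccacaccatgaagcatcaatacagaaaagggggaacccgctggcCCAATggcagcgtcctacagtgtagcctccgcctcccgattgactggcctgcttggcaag
The NDUFA1 stretch holds an ETS match on its reverse strand and an SP1 match on each strand. NDUFA3 holds an NRF1 match before the start and a YY1 match after it, and NDUFA12 has its YY1 match after the start. The match of NDUFS1 near the beginning of its stretch is an SP1 match, and NDUFS8 holds a pair of CCAAT matches.

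The first comparison asks how the subunit genes stood when TST was silenced. Of the 36 genes, 5 were higher and 1 was lower in shTST than in WT (edgeR quasi-likelihood test, Benjamini-Hochberg adjusted p of 0.05 or less over 14584 genes). Of all genes tested, 6.69% were called higher and 9.4% lower. Of all genes with a principal transcript of up to 1 kb, 11.8% were higher and 2.84% lower, with a median log2 fold change of 0.067. Of the 21 subunit genes in that class 19% were higher and 0% lower, with a median of 0.078. From over 1 to 2 kb, 11.1% of 9 subunit genes and 7.44% of all genes were higher. Over 2 kb it was 0% of 6 subunit genes and 6.87% of all genes. The median log2 fold change of the 36 genes was 0.022, against 0.0040 over all genes tested, with 22 values above 0 and 14 below. This median was not stable: it was −0.0017 without WT replicate 2, 0.075 without WT replicate 3 and 0.077 with the GC trend taken out. The genes that rose were NDUFB1, NDUFA1, NDUFA2, NDUFA5 and NDUFA12, all accessory subunits, and the gene that fell was NDUFV1, the core subunit that oxidizes NADH. In bulk RNA a change in the share of cells and a change in the RNA per cell cannot be told apart.

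NDUFB1, a small accessory subunit of the membrane arm, was at 13.2, 11.3, 13.4 and 12.5 CPM in the WT libraries, at 15.6, 14.6, 16.6 and 16.2 CPM in shTST and at 15.0, 17.1, 18.0 and 17.7 CPM in overTST. Every library of both engineered lines stood above every WT library. The rise was 25.6% in shTST (log2 fold change 0.33, SE 0.075, edgeR adjusted p = 0.00472) and 34.7% in overTST (log2 0.43, SE 0.083, edgeR adjusted p = 0.000307). NDUFA1, an X-linked accessory subunit with a single membrane span, was at 26.8, 29.3, 33.7 and 30.5 CPM in WT, at 39.4, 32.9, 35.6 and 33.0 in shTST and at 36.8, 45.7, 40.7 and 43.1 in overTST. The shTST values overlapped WT through WT replicate 3, and all overTST values lay above WT. NDUFA1 rose by 17.3% in shTST (log2 0.23, SE 0.070, edgeR adjusted p = 0.0261) and by 38.3% in overTST (log2 0.47, SE 0.073, edgeR adjusted p = 2.89e-05). Of its exonic bases, 44.5% are shared with RNF113A on the opposite strand, so without a stated strand setting some of its reads are uncertain.

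NDUFA2, an accessory subunit at the NADH-oxidizing tip of the peripheral arm, was at 44.1, 42.2, 49.9 and 44.9 CPM in WT, at 55.8, 50.8, 55.8 and 49.1 in shTST and at 52.8, 60.4, 60.4 and 63.6 in overTST. The shTST group overlapped WT by 1 library and the overTST group stood apart. The log2 fold changes were 0.23 (SE 0.059, edgeR adjusted p = 0.0108) and 0.39 (SE 0.064, edgeR adjusted p = 4.93e-05). NDUFA5, an accessory subunit of the part that reduces ubiquinone, was at 47.0, 42.8, 45.7 and 47.1 CPM in WT, at 53.3, 49.3, 51.6 and 50.8 in shTST and at 53.8, 53.8, 54.4 and 50.3 in overTST. Both lines stood apart from WT, by 0.17 (SE 0.051, edgeR adjusted p = 0.0249) and 0.22 (SE 0.056, edgeR adjusted p = 0.00357) on the log2 scale. NDUFA12, which sits where the NADH and ubiquinone parts meet, was at 51.3, 50.5, 54.5 and 56.2 CPM in WT, at 60.6, 57.5, 59.6 and 60.8 in shTST and at 62.3, 69.3, 70.4 and 64.8 in overTST. Here too neither line overlapped WT, with log2 fold changes of 0.17 (SE 0.049, edgeR adjusted p = 0.0225) and 0.33 (SE 0.057, edgeR adjusted p = 8.83e-05). With the trend of each library with principal transcript length taken out, as described further on, the overTST calls of NDUFB1 (0.11, edgeR adjusted p = 0.278), NDUFA5 (0.14, edgeR adjusted p = 0.0507) and NDUFA12 (0.040, edgeR adjusted p = 0.597) were lost, while NDUFA1 (0.21) and NDUFA2 (0.14) stayed called at smaller values. In shTST that step ended the calls of NDUFA1 (0.17, edgeR adjusted p = 0.0571) and NDUFA12 (0.088, edgeR adjusted p = 0.191).

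NDUFV1 was at 135, 138, 155 and 141 CPM in WT, at 122, 126, 136 and 128 in shTST and at 141, 160, 159 and 157 in overTST. In shTST 3 of 4 libraries lay below the whole WT range, and the overTST values overlapped WT. The log2 fold change was −0.15 in shTST (SE 0.048, edgeR adjusted p = 0.0338) and 0.12 in overTST (SE 0.053, edgeR adjusted p = 0.0963, not past the threshold). The shTST calls were few and depended on single libraries. The count of higher genes went to 2 without shTST replicate 1, to 3 when WT replicate 1 or 2 or shTST replicate 3 or 4 was dropped, and to 10 without WT replicate 3. Over all genes, upper-quartile scaling turned the split from 975 higher and 1371 lower to 1284 and 1151, with 7 and 0 among the 36 genes. NDUFV1 lost its call without WT replicate 3 or 4 or without shTST replicate 1, 2 or 4. NDUFB1 and NDUFA2 kept theirs in each of these fits.

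**Figure D1:**
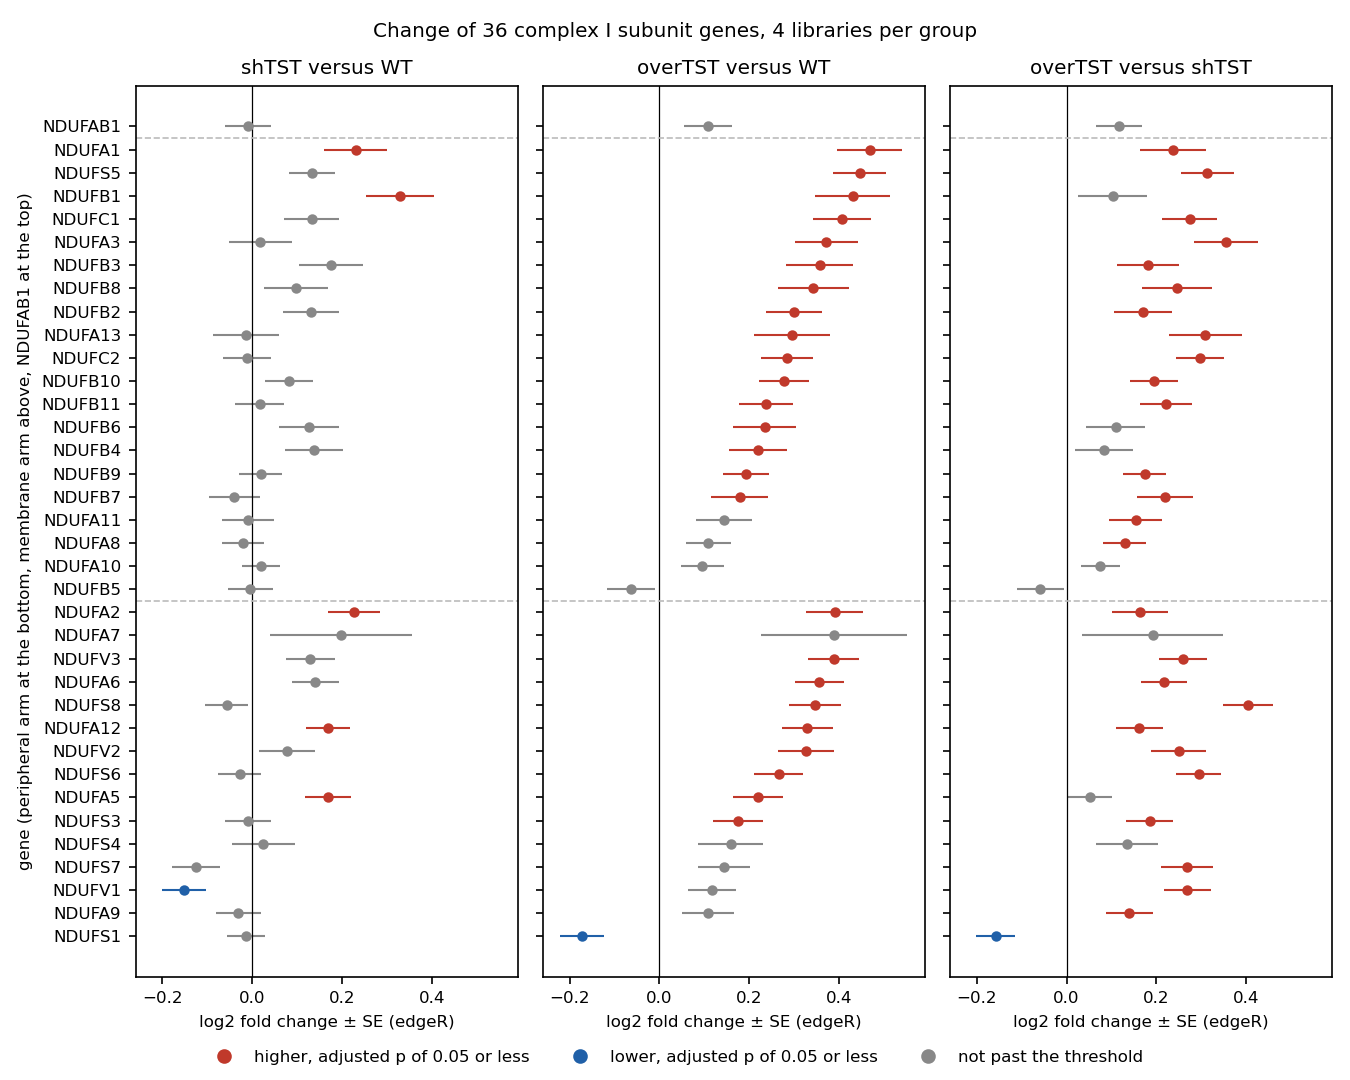
Log2 fold change with its SE (horizontal axis, edgeR) for each of the 36 genes (vertical axis, grouped by arm) in the 3 comparisons, with 4 libraries per group. Red marks genes higher and blue genes lower at an adjusted p of 0.05 or less: 5 and 1 in shTST versus WT, 25 and 1 in overTST versus WT, and 26 and 1 in overTST versus shTST, where NDUFS1 is the blue point of both panels with overTST.

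The second comparison asks how the same genes stood in the line with the TST transgene. In overTST 25 of the 36 genes were higher than in WT and 1 was lower (edgeR, adjusted p of 0.05 or less over 14421 genes). The background was 15.7% of all genes called higher and 18.2% called lower. The median log2 fold change was 0.27 against 0.0019 over all genes tested, 34 of 36 values were above 0, and the range was −0.17 to 0.47. In the membrane arm 16 of 20 genes rose with a median of 0.28, in the peripheral arm 9 of 15 rose and 1 fell with a median of 0.27, and among the 6 core subunits 3 rose and 1 fell with a median of 0.16. Genes of both arms, for accessory as well as core subunits, were among those called, and each rise was at most 38.3%. With the principal transcript length trend taken out, the 10 genes called higher were all accessory subunits, and no core gene was called in either direction.

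The 5 largest rises were those of NDUFA1, NDUFS5, NDUFB1, NDUFC1 and NDUFA2. NDUFS5 was at 154, 150, 172 and 162 CPM in WT, at 170, 165, 190 and 174 in shTST and at 188, 231, 222 and 227 in overTST. All overTST libraries lay above WT, by 0.45 on the log2 scale (SE 0.059, edgeR adjusted p = 4.69e-06), and the shTST difference of 0.13 did not pass the threshold (edgeR adjusted p = 0.0761). NDUFC1, a small accessory subunit of the membrane arm, was at 31.3, 30.2, 36.3 and 34.8 CPM in WT, at 37.1, 36.3, 37.2 and 34.3 in shTST and at 41.3, 45.03, 43.2 and 45.9 in overTST. Again the overTST group stood apart (log2 fold change 0.41, SE 0.065, edgeR adjusted p = 4.33e-05), while shTST overlapped WT at 0.13 (edgeR adjusted p = 0.149). With the principal transcript length trend taken out, NDUFS5 (0.13) and NDUFC1 (0.24) stayed called in overTST. Outside the genes given per library, the rises in overTST ran from 0.18 for NDUFB7 to 0.39 for NDUFV3, an accessory subunit of the peripheral arm.

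NDUFS1, the largest core subunit of the peripheral arm and a carrier of iron-sulfur clusters, went the other way. It was at 151, 147, 140 and 141 CPM in WT, at 138, 147, 143 and 145 in shTST and at 131, 125, 133 and 126 in overTST. Each overTST library lay below each WT and each shTST library. The log2 fold change was −0.17 in overTST (SE 0.048, edgeR adjusted p = 0.00766) and −0.014 in shTST (edgeR adjusted p = 0.857). The fall was not seen once gene length was taken into account: NDUFS1 was at 0.0040 with the exonic length trend taken out (edgeR adjusted p = 0.958) and at 0.059 with that of the principal transcript (edgeR adjusted p = 0.347). NDUFS1 has the longest exonic length of the 36 genes, 12268 bases, and 11.5% of it is shared with a gene on the opposite strand that had no counts.

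Of the other core subunits, NDUFV2, an iron-sulfur protein next to NDUFV1, was at 31.98, 28.4, 31.5 and 30.2 CPM in WT, at 34.6, 30.3, 30.1 and 33.7 in shTST and at 37.7, 40.9, 37.6 and 36.6 in overTST. The overTST group stood apart from both others and rose by 0.33 (SE 0.062, edgeR adjusted p = 0.000278), while shTST overlapped WT. NDUFV2P1, a pseudogene of NDUFV2, had a mean of 385 counts beside 992 for NDUFV2 and a log2 fold change of 0.28 in overTST, so the reads of this pair are uncertain. NDUFS3, a core subunit of the ubiquinone-reducing part, was at 63.8, 61.9, 70.8 and 61.0 CPM in WT, at 60.8, 63.2, 65.5 and 65.8 in shTST and at 69.9, 72.3, 73.4 and 74.9 in overTST. It rose by 0.18 in overTST (SE 0.055, edgeR adjusted p = 0.0157), with 1 WT library inside the overTST range, and it shares 19.6% of its exonic bases with PTPMT1 on the same strand. NDUFS7, the core subunit nearest to ubiquinone, was at 54.1, 56.6, 59.5 and 53.4 CPM in WT, at 48.2, 49.4, 55.4 and 51.9 in shTST and at 55.8, 63.4, 62.3 and 65.6 in overTST. Neither line passed the threshold against WT (log2 −0.13 and 0.14, edgeR adjusted p = 0.119 and 0.0584), and the groups overlapped in both cases.

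NDUFS8, an iron-sulfur core subunit, was at 76.8, 77.2, 86.8 and 81.9 CPM in WT, at 75.6, 76.1, 80.1 and 78.1 in shTST and at 90.4, 106, 107 and 107 in overTST. It was above both other groups in each overTST library, with a log2 fold change of 0.35 against WT (SE 0.058, edgeR adjusted p = 7.17e-05) and −0.057 in shTST (edgeR adjusted p = 0.464). With the principal transcript length trend taken out, the overTST calls of NDUFS8 (0.092, edgeR adjusted p = 0.149), NDUFV2 (0.099, edgeR adjusted p = 0.228) and NDUFS3 (−0.046, edgeR adjusted p = 0.517) were lost. The 10 genes that passed the threshold in neither direction in overTST were NDUFA7, NDUFS4, NDUFS7, NDUFA11, NDUFV1, NDUFA8, NDUFA9, NDUFAB1, NDUFA10 and NDUFB5, with log2 values from −0.063 for NDUFB5 to 0.39 for NDUFA7. Of these, NDUFS4, NDUFA8 and NDUFA10 were nonetheless higher in every overTST library than in every WT library. The NDUFA7 estimate had an SE of 0.16, more than any other of the 36 genes, at the lowest count.

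**Figure D2:**
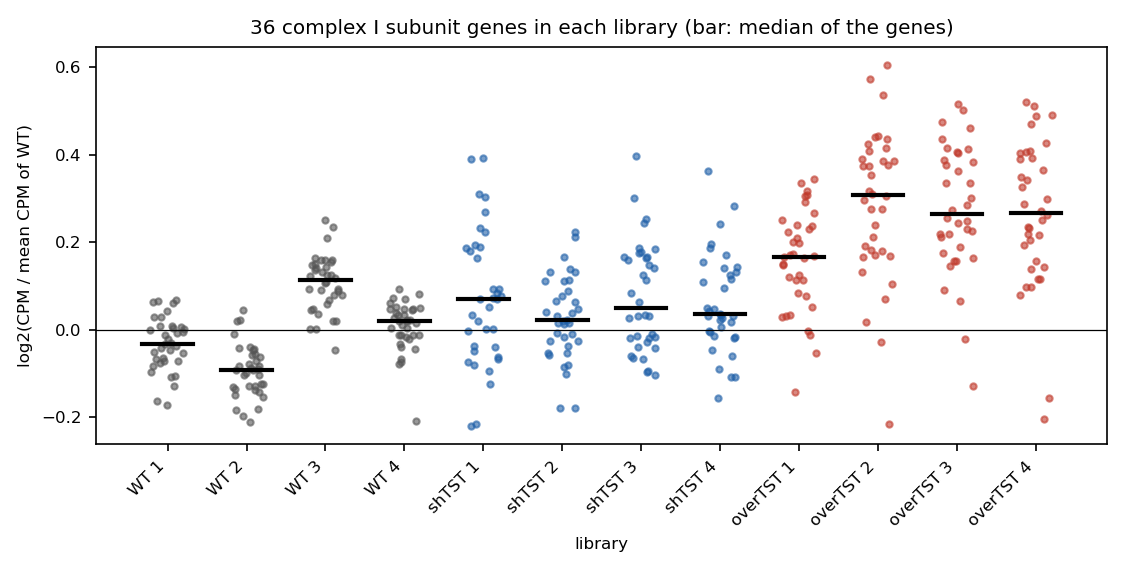
Log2 ratio of CPM to the mean CPM of WT (vertical axis) for the 36 genes in each of the 12 libraries (horizontal axis), with 1 point per gene and a bar at the median. The medians were −0.093 to 0.11 in WT, 0.021 to 0.070 in shTST and 0.17 to 0.31 in overTST, so every overTST median lay above every WT median.

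The WT libraries differed among themselves in these genes, as the plot of ratios by library shows. WT replicate 3 lay above the WT mean for 35 of 36 genes and WT replicate 2 for 3 of 36. In overTST replicate 1, the overTST library nearest to WT, 32 of 36 genes were above the WT mean, and in each of the other 3 overTST libraries 34 were. In shTST 22 to 25 genes were above it. The summed level of the 36 genes was 2107 to 2381 CPM in WT, 2253 to 2327 in shTST and 2454 to 2669 in overTST. Leaving out any one library left 22 to 29 genes higher in overTST than in WT, and NDUFS1 lower each time.

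The direct comparison asks where the lines with more and less TST differ, and it shares its overTST and shTST libraries with the comparisons above. Of the 36 genes, 26 were higher and 1 was lower in overTST than in shTST (edgeR, 12 libraries in 1 fit, 14883 genes), against 16.1% and 16.9% of all genes tested. The median log2 fold change was 0.19 against −0.00084 over all genes. Of all genes with a principal transcript of up to 1 kb, 47.9% were called higher with a median of 0.20. Of the 21 subunit genes in that class 76.2% were, with a median of 0.18, slightly below that of all genes. From over 1 to 2 kb the medians were 0.22 for 9 subunit genes and 0.12 for all genes. Over 2 kb they were 0.20 for 6 subunit genes and −0.065 for all genes. All 6 core genes were called, 5 higher and 1 lower, with a median of 0.26. The largest differences were those of NDUFS8 (log2 0.40, SE 0.055, edgeR adjusted p = 6.84e-06), NDUFA3, NDUFS5, NDUFA13 and NDUFC2, with shTST replicate 3 reaching into the overTST range of NDUFS5. The lower gene was NDUFS1 (−0.16, SE 0.044, edgeR adjusted p = 0.00693). Spearman's rho of the log2 fold change with GC content was 0.59 across the 36 genes and 0.33 across all genes tested. With the length of the principal transcript it was −0.029 across the 36 genes and −0.47 across all genes tested that had one. With the GC trend taken out, 28 genes were higher, 21 of them among the 26, and 0 were lower. Of all genes tested, 14.7% were then higher and 14.4% lower. NDUFS8, NDUFA3, NDUFS5, NDUFA13 and NDUFC2 stayed called there.

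NDUFA3, a small accessory subunit of the membrane arm, was at 27.9, 26.5, 31.7 and 30.7 CPM in WT, at 26.8, 28.1, 32.7 and 30.2 in shTST and at 33.6, 39.5, 38.7 and 39.2 in overTST. WT and shTST overlapped and overTST lay above both, by 0.35 over shTST (SE 0.072, edgeR adjusted p = 0.000468). NDUFA13, also known as GRIM-19, was at 27.4, 28.3, 36.7 and 31.1 CPM in WT, at 30.1, 29.8, 31.6 and 30.5 in shTST and at 31.5, 40.1, 39.0 and 40.8 in overTST. Its lowest overTST library fell inside the shTST range, and the difference was 0.31 (SE 0.081, edgeR adjusted p = 0.00438). NDUFC2, an accessory subunit of the membrane arm, was at 81.4, 75.6, 92.3 and 83.5 CPM in WT, at 80.9, 84.5, 79.8 and 84.4 in shTST and at 100.1, 96.4, 108 and 100.3 in overTST. No overTST value reached down to the others, and the difference was 0.30 (SE 0.054, edgeR adjusted p = 0.000167).

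The differences from shTST of the core genes NDUFV1 (0.27), NDUFS7 (0.27), NDUFV2 (0.25) and NDUFS3 (0.18) also passed the threshold, with edgeR adjusted p-values of 0.00028, 0.000811, 0.00282 and 0.00725. With the principal transcript length trend taken out, NDUFS8 (0.21), NDUFV1 (0.24), NDUFA3 (0.18) and NDUFC2 (0.27) stayed called against shTST, while NDUFS7 (0.099), NDUFV2 (0.071), NDUFS3 (0.0082), NDUFS5 (0.092), NDUFA13 (0.13) and NDUFS1 (0.050) did not pass the threshold. For NDUFB1 the difference between the lines was 0.10 (95% interval −0.049 to 0.25) and for NDUFA5 0.051 (95% interval −0.049 to 0.15), neither past the threshold. The count of higher genes was 18 to 24 when any one of the 8 overTST and shTST libraries was left out. WT libraries were not left out of this fit.

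The size of the rise in overTST moved with gene length over all genes. Across the 14421 genes tested, Spearman's rho of the log2 fold change with exonic length was −0.40, and it was −0.51 with the length of the principal transcript (12164 genes). These are correlations across genes of the same libraries, which are not independent replicates. The 36 genes are short, with a median principal transcript of 944 bases. Of all genes with a principal transcript of up to 1 kb, 58.1% were called higher in overTST with a median of 0.27, and of the 21 subunit genes in that class 76.2% were, with a median of 0.33. From over 1 to 2 kb the medians were 0.24 for 9 subunit genes and 0.13 for all genes, and over 2 kb they were 0.11 for 6 subunit genes and −0.072 for all genes. By exonic length in the count files, the median of the subunit genes was above that of all genes in each of the 5 classes.

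When the trend of each library with exonic length was taken out, 22 of the 36 genes were higher in overTST than in WT, 18 of them among the 25, none was lower, and the median was 0.19. With the principal transcript length instead, an alternative chosen after seeing the data, 10 were higher (8 of the 25), 3 were lower and the median was 0.088. The 10 were NDUFA1, NDUFA2, NDUFA6, NDUFA9, NDUFA10, NDUFB2, NDUFC1, NDUFC2, NDUFS5 and NDUFV3, and the lower genes were NDUFA8, NDUFA11 and NDUFB5. Either correction moved NDUFS1 to the other side of 0, at 0.0040 and 0.059. Of all genes tested, 14.2% were higher and 14.3% lower in overTST than in WT with the exonic length correction. With the principal transcript correction it was 12.7% and 11.7%. The same corrections left 17 and 8 of the 36 genes higher in overTST than in shTST, beside 14.9% and 13.8% of all genes tested. Within WT, the rank correlation of a library's deviation from the other WT libraries with exonic length ran from −0.24 in WT replicate 3 to 0.22 in WT replicate 2, and in overTST from −0.37 to −0.27.

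**Figure D3:**
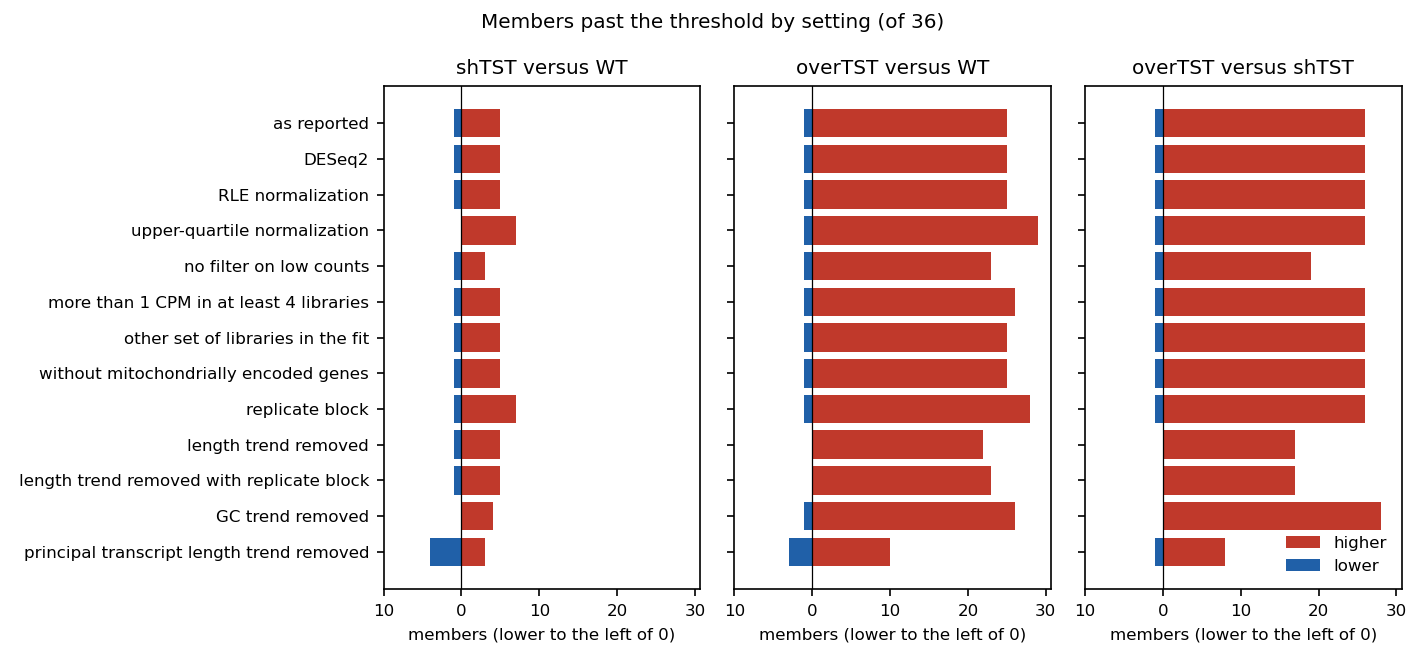
Number of the 36 genes higher (red, right of 0) and lower (blue, left of 0) at an adjusted p of 0.05 or less in each comparison, by setting (vertical axis). In overTST versus WT the bars run from 22 to 29 higher except for the principal transcript length trend, with 10 higher and 3 lower.

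Genes that work with the 36 were described from fixed lists. The 7 mitochondrially encoded subunits of complex I, which form the proton-pumping core of the membrane arm, all rose in overTST with a median of 0.44, among them MT-ND6 (0.54, SE 0.13, edgeR adjusted p = 0.00185) and MT-ND3 (0.30, SE 0.074, edgeR adjusted p = 0.00274). Their summed level was 43350 to 48450 CPM in overTST and 25380 to 48450 CPM in WT, where WT replicate 4 was as high as overTST. In shTST all 7 had values below 0 (median −0.20) with edgeR adjusted p-values from 0.0651 to 0.603. Against shTST all 7 were higher in overTST with a median of 0.63, among them MT-ND3 (0.50, edgeR adjusted p = 9.68e-06) and MT-ND4 (0.74, edgeR adjusted p = 0.000192). Of all genes tested, 15.7% were higher in overTST against WT and 16.1% against shTST.

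Of 20 assembly factors, which build the complex without being part of it, 8 rose in overTST and none fell, with a median of 0.13, beside 15.7% of all genes higher and 18.2% lower. The smallest p-values were those of NDUFAF2 (0.45, edgeR adjusted p = 8.06e-05), which is bound to a late assembly intermediate, and NDUFAF8 (0.39, edgeR adjusted p = 0.000113). In shTST the 1 called factor was ECSIT, which fell by 0.18 on the log2 scale (edgeR adjusted p = 0.0204). There 6.69% of all genes were higher and 9.4% lower. Against shTST 8 factors were higher in overTST, led by TMEM126B (0.35, edgeR adjusted p = 0.00033) and ECSIT (0.28, edgeR adjusted p = 0.000347). NUBPL, an iron-sulfur delivery protein, was lower (−0.19, edgeR adjusted p = 0.0182). In that comparison 16.1% of all genes were higher and 16.9% lower. NDUFA4, once counted as a complex I subunit and now assigned to complex IV, rose in overTST (0.21, edgeR adjusted p = 0.0212).

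Among 9 regulators of respiratory genes, GABPB1 rose in overTST (0.16, edgeR adjusted p = 0.0295), while GABPA (−0.29, edgeR adjusted p = 0.00876) and PPARGC1A (−0.43, edgeR adjusted p = 0.00169) fell. In shTST TFAM, the mitochondrial DNA packaging factor, rose by 0.14 (edgeR adjusted p = 0.0452), where 6.69% of all genes were higher. Against shTST, ESRRA was higher in overTST (0.20, edgeR adjusted p = 0.0244), and NRF1, GABPA and TFAM were lower, with GABPA (−0.37, edgeR adjusted p = 0.000626) and TFAM (−0.22, edgeR adjusted p = 0.00119) having the smallest p-values. The background against shTST was 16.1% of all genes higher and 16.9% lower. The nuclear subunits of the other complexes are given for comparison. In overTST all 10 listed genes of complex IV rose (median 0.30), and of 28 genes of complexes II, III and V 20 rose and 1 fell (median 0.28), beside 25 and 1 of the 36 genes of complex I (median 0.27). The same background of 15.7% and 18.2% applies to these lists, and 58.1% of all genes with a principal transcript of up to 1 kb were called higher. The part of gene length in the counts of these lists was not tested.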

How the data were processed

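RNA of 12 HepG2 libraries was sequenced at a commercial provider, and groups and replicate numbers came from the labels. The authors deposited whole-number read counts per Ensembl gene, not normalized, with exonic length. The submitters' processing notes name Trimmomatic 0.36, STAR 2.5.2b, featureCounts of Subread 1.5.2 and GRCh38, and the annotation release and strand setting are not given in the sources used here. Of 57500 gene identifiers, 56410 had a symbol in the name table, and 20152 had a principal transcript in GENCODE 29, which gave the transcript length. GC content was that of the longest GENCODE 29 transcript of each gene, available for 56845 genes.

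The members and lists were chosen with earlier results of these data known. Counts were filtered with filterByExpr, scaled by TMM and tested with edgeR 4.0.16 (glmQLFit and glmQLFTest, R 4.3.3, limma 3.58.1) with Benjamini-Hochberg adjustment over all genes tested at 0.05. Comparisons with WT used their own 8 libraries, and overTST versus shTST used all 12. The SE is the log2 fold change over the square root of F. CPM per library used TMM over 12 libraries, with a prior count of 2 on the log2 scale. Named genes were the 5 largest increases and 5 largest decreases past the threshold in each comparison, genes past it in opposite directions in the 2 lines, and the core subunits, and of the other lists the 2 smallest p-values in each direction. Alternatives were DESeq2 1.42.0, RLE and upper-quartile scaling, other filters, other libraries in the fit, no mitochondrially encoded genes, the replicate block, and length and GC trends (lowess, span 0.3). Each library of the groups compared was also left out in turn. The procedure was tested on simulated data with 200 changed genes for each comparison with WT. It called 77% (shTST) and 78% (overTST) of the genes changed by 0.3 on the log2 scale, and 100% of those changed by 0.6. Of all its calls, 8.29% and 6.32% fell on unchanged genes, above the 5% aimed at. Figures were drawn with matplotlib 3.10.9.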

Additional observations from a re-analysis of the deposited data

Results flagged for a closer look

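Of 108 groups of 4 libraries, 1 for each of the 36 genes in each of the 3 groups, 6 held a library whose distance to the nearest other took up more of the group's range than Dixon's 95% critical value. Chance gives this in about 1 in 20 groups. In overTST replicate 1, NDUFS8 was at 90.43 CPM (others 105.6 to 107.4), NDUFV1 at 141.2 CPM (others 157.1 to 160.1) and NDUFA3 at 33.55 CPM (others 38.65 to 39.52). In overTST replicate 4, NDUFA5 was at 50.28 CPM (others 53.82 to 54.45) and NDUFA8 at 87.37 CPM (others 80.23 to 81.37). In WT replicate 2, NDUFA10 was at 116.5 CPM (others 121.1 to 121.9).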

How the results depend on the processing

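For shTST versus WT the 5 higher genes became 3 with no filter on low counts and 3 with the principal transcript length trend taken out, and ranged from 2 to 10 when single libraries were left out. The 1 lower gene became 0 with upper-quartile scaling or the GC trend taken out, 4 with the principal transcript length trend taken out, and 0 to 1 when single libraries were left out. For overTST versus WT the 25 higher genes became 10 and the median log2 fold change 0.088 with the principal transcript length trend taken out. The 1 lower gene became 0 with the exonic length trend taken out, with or without the replicate block, and 3 with the principal transcript length trend, where NDUFS1 turned to 0.0040, 0.0037 and 0.059. For overTST versus shTST the 26 higher genes became 17 with the exonic length trend taken out (17 with the block) and 8 with that of the principal transcript, and the median became 0.11, 0.10 and 0.041. The 1 lower gene became 0 with the exonic length trend (with or without the block) or the GC trend taken out. With the principal transcript length trend NDUFS1 turned to 0.050, and the 1 lower gene was NDUFB5 instead. The cause of these shifts was not tested. Of all genes tested, 8.44% were higher and 9.79% lower in shTST than in WT with the principal transcript length trend taken out. With no filter on low counts it was 2.69% and 4.94%.

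Deviations of same-numbered libraries had correlations of −0.053 to 0.080 across genes, and not every library correlated best with its own number. The labels do not say whether the numbers pair libraries, and correlations this weak cannot settle it. The reported fits do not pair them. With the replicate block, 7 genes were higher and 1 lower in shTST, 28 and 1 in overTST, and 26 and 1 in overTST against shTST. Of all genes tested, the block gave 1247 higher and 1733 lower in shTST, 2408 and 2758 in overTST, and 2556 and 2676 in overTST against shTST. Over all genes, 644 were higher and 869 lower in shTST without shTST replicate 1, against 975 and 1371, and 1827 higher and 1686 lower in overTST with the principal transcript length trend taken out, against 2265 and 2628. The counts and medians of the 36 genes stayed within the limits used under DESeq2, RLE scaling, the stricter filter, other libraries in the fit, and without mitochondrially encoded genes. Counting error is smallest for the abundant genes and limits NDUFA7, at 68.7 counts per library, most. Without strand, reads of overlapping genes such as NDUFA1 with RNF113A and NDUFB11 with RBM10 cannot be told apart.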
